A study of Mus musculus with 18 samples.

Results

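The semaphorins and their receptors, the plexins and neuropilins, were followed in cultured mouse cortical astrocytes. The genes were chosen by name alone: every protein-coding gene of the count table with a symbol Sema3 to Sema7 followed by a letter, Plxna, Plxnb, Plxnc or Plxnd followed by a digit, or Nrp1 or Nrp2. This gave 31 genes of the 22025 protein-coding genes and 51912 genes counted in all: 20 semaphorins, 9 plexins and 2 neuropilins. Primary cultures were made from the cortices of postnatal day 0 mice of the Aldh1l1-EGFP/Rpl10a line JD130Htz, on a mixed B6 and FVB background, with equal numbers of males and females. In this line the Aldh1l1 promoter, which is active mainly in astrocytes, drives a ribosomal protein tagged with EGFP. Dishes were held without serum for 24 h and then received 50 mM ethanol in serum-free medium or serum-free medium alone (control) for 24 h. Tagged ribosomes and the RNA on them were then isolated with GFP antibodies by translating ribosome affinity purification (TRAP), which gave the IP fraction, and an aliquot of the same lysate before the purification was the input fraction. There were 6 control and 6 ethanol IP libraries, each from a separate dish (replicates 1 to 6), and 3 control and 3 ethanol input libraries from the dishes of replicates 4 to 6. All groups carried the transgene, were grown outside the brain from birth, passaged and then held without serum, so no group gives the level in astrocytes in the brain. The labels do not say how many separate cell preparations the dishes came from, and p-values measure the spread between dishes.

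Semaphorins are secreted or membrane-bound guidance cues that share an extracellular sema domain, and they were first known for steering growing axons. Class 3 semaphorins are secreted and mostly bind a complex of a neuropilin, which holds the ligand, and an A-type plexin, which signals. Class 4 semaphorins span the membrane and signal mainly through B-type plexins, class 6 semaphorins through A-type plexins, and Sema7a, which is anchored to the membrane by a lipid, through Plxnc1 and through beta1 integrins. Plexins carry a GTPase-activating domain inside the cell that acts on Ras family proteins, and they reach the actin and microtubule cytoskeleton through, among others, collapsin response mediator proteins and MICAL enzymes. In the brain, glial cells make several of these cues, and class 3 semaphorins are known from glial and meningeal scars that stop axon regrowth.

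Each library held 74239854 to 132810705 read pairs assigned to genes (median 84119135), and all 31 genes passed the filter of at least 10 read pairs over the 18 libraries that left 24495 genes to test. Levels are given as CPM, the read pairs of a gene relative to all assigned pairs of its library, scaled by TMM, a library scaling factor taken from the bulk of the genes. The test was the quasi-likelihood test of edgeR, and a gene is called where its p adjusted by Benjamini and Hochberg over all 24495 genes is below 0.05. Aldh1l1, whose promoter carries the tag, had 375 CPM on average in IP and 181 CPM in input (log2 fold change 1.05, SE 0.022, adjusted p = 5.45e-51, edgeR). Of 12 astrocyte markers 9 were called higher and 1 lower in IP, and their summed level was 2450 to 2629 CPM in the IP libraries and 1579 to 1660 CPM in the input libraries. Summed over 9 microglial markers the level was 68.3 to 82.4 CPM in IP and 161 to 184 CPM in input, and over 7 fibroblast and meningeal markers it was 125 to 143 CPM in IP and 236 to 244 CPM in input. The 5 endothelial markers tested were near 0 in every library, with a sum of at most 2.11 CPM. Other lists summed higher in IP. In control cultures 11 neuronal markers had 142 to 149.3 CPM in IP and 116 to 119 CPM in input. The 7 mural markers had 1736 to 1873 CPM and 1385 to 1459 CPM, and 9 oligodendrocyte lineage markers 68.6 to 78.8 CPM and 46.9 to 50.6 CPM. Of the neuronal markers 5 were called higher and 2 lower in IP, and of the mural markers 3 higher and 2 lower.

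Levels can be compared between genes only per length, and for this the CPM was divided by the merged exon length of each gene in kilobases (kb). Plxnb2 stood far above all other members, with 175 CPM per kb in IP control and 153.5 CPM per kb in input control. It encodes a B-type plexin, a receptor of class 4 semaphorins. In IP control the next in order were Sema3b with 53.1 CPM per kb, Plxna1 with 34.1, Plxnd1 with 32.7, Sema3c with 29.4, Plxnb1 with 28.4 and Sema3f with 27.3 CPM per kb. The libraries of Plxna1 and Plxnd1 overlapped, as did those of Sema3c and Plxnb1 and those of Plxnb1 and Sema3f, so these neighbours were not separated beyond their spread. After Sema3f the level dropped to 9.98 CPM per kb for Sema7a, 9.30 for Plxna2 and 9.09 for Nrp1, and the ranges of Plxna2 and Nrp1 overlapped too. A group of 16 members lay between 1 and 10 CPM per kb in IP control, and 8 lay under 1 CPM per kb, among them Sema3a with 0.352, Sema3d with 0.212, Sema4a with 0.0977, Plxnb3 with 0.0640 and Sema3g with 0.0399 CPM per kb. With the longest transcript in place of the merged exons Plxnb2 and Sema3b stayed in the first and second place, and Sema3f moved from place 7 to place 3.

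**Figure D1:**
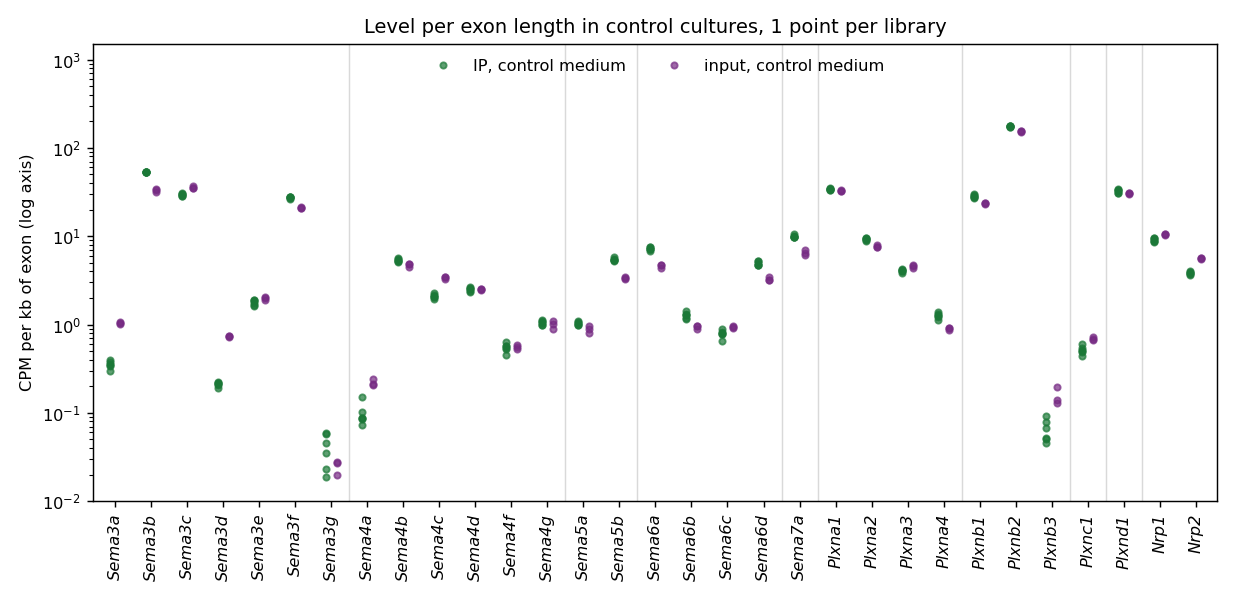
Level of the 31 genes in control cultures in CPM per kb of exon (log axis), with 6 IP and 3 input libraries as points and vertical lines between gene classes. Plxnb2 is highest in both fractions, and Sema3g, Plxnb3 and Sema4a are lowest.

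The semaphorin mRNA of these cultures was mainly of class 3, and the proteins were not measured. Of the summed semaphorin level per kb, class 3 held 72.6% ± 0.25 (SD, n = 6) in IP control and 74.0% ± 0.27 (SD, n = 3) in input control. In IP control Sema3b alone held 34.3% ± 0.25, Sema3c 19.0% ± 0.46 and Sema3f 17.6% ± 0.28. These 3 genes encode secreted cues, and the classical axon repellent Sema3a was low beside them. In input control the order of the leading ligands differed, with Sema3c at 28.1% ± 0.98 and Sema3b at 26.2% ± 0.74, and their ranges did not overlap. Class 6 held 9.20% ± 0.23 in IP control, class 4 7.57% ± 0.21, class 7 6.46% ± 0.23 and class 5 4.2% ± 0.12. With the longest transcript in place of the merged exons class 7 held 4.65% and class 5 4.71%. Among the receptors, B-type plexins held 71.3% ± 0.44 of the summed plexin level in IP control, and Plxnb2 alone held 61.3% ± 0.34. A-type plexins held 17.1% ± 0.14, Plxnd1 11.5% ± 0.45 and Plxnc1, the receptor of Sema7a, 0.18% ± 0.020. Nrp1 held 70.2% ± 1.2 of the neuropilin level in IP control and 65.3% ± 0.62 in input control. With the longest transcript these shares were 78.2% and 74.2%.

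The comparison of IP with input asks which of these mRNAs were over- or under-represented on tagged ribosomes. Of the 31 genes 16 were higher in IP, 11 were lower and 4 were not called, and so 87.1% of them were called. Over all genes tested 51% were called, 25.2% higher and 25.8% lower. Calls depend on depth, and of the 11066 genes that averaged 5 CPM or more 46.6% were higher and 32% lower, 78.6% in all. At that level there were 25 members, 16 higher and 7 lower. The 31 log2 fold changes had a median of 0.13 and ran from -1.76 to 0.70, and the median over all genes tested was -0.03. With at least 5 CPM the median was 0.17 for the 25 members and 0.05 for all genes. In 11 members every IP library lay above every input library and in 8 every IP library lay below. Groups were separated in this way in 25% of all genes tested. At 5 CPM or more they were separated in 45.2% of genes, 27.6% upward and 17.5% downward, and in 11 members upward and 4 downward.

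Class 3 ligands went both ways. Sema3d and Sema3a were the 2 members with the lowest IP to input ratio of all 31. Sema3d ran from 1.43 to 2.16 CPM in the 12 IP libraries (median 1.83) and from 5.85 to 6.36 CPM in the 6 input libraries (median 6.24). It was thus 3.39-fold lower in IP (log2 fold change -1.76, SE 0.065, adjusted p = 1.68e-36). Sema3a, the prototype axon repellent, ran from 3.96 to 5.51 CPM in IP (median 4.72) and from 13.1 to 14.9 CPM in input (median 14.3). It was 3.05-fold lower in IP (log2 fold change -1.61, SE 0.048, adjusted p = 2.56e-42). In both genes every input library lay far above every IP library. Fibroblast and meningeal markers moved the same way: 5 of the 7 were called lower in IP and 2 higher, Dcn had a log2 fold change of -1.87 and Col1a1 of -1.62, while Foxc1 was at 0.36 and Col1a2 at 0.28. Of the 9 microglial markers 8 were called lower and none higher, with a median log2 fold change of -2.43. Their part in the result was not tested. Both fractions came from the same lysates, and RNA of untagged cells cannot be told apart from RNA of tagged cells off the ribosomes.

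Sema3b and Sema3f, which encode secreted ligands of the same class, were on the other side. Sema3b ran from 232 to 255 CPM in IP (median 251) and from 143 to 164.5 CPM in input (median 151.4), with no overlap, and its log2 fold change of 0.70 was the highest of the 31 genes (SE 0.020, adjusted p = 2.00e-43). Sema3f averaged 142 CPM in IP against 107 CPM in input (log2 fold change 0.41, SE 0.023). Sema3c, with 209 CPM in IP and 249 CPM in input, was lower in IP (log2 fold change -0.25, SE 0.020), and so was Sema3e, the ligand that binds Plxnd1 without a neuropilin (-0.16, SE 0.035). Sema3g averaged 0.15 CPM in IP against 0.0962 CPM in input, from 208 read pairs in all 18 libraries together, and was not called (log2 fold change 0.64, SE 0.33). Class 3 thus counted 2 members higher, 4 lower and 1 not called.

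The membrane-bound ligands of classes 4 to 7 went both ways too. Over all genes tested 25.2% were higher in IP and 25.8% lower, and of those with at least 5 CPM 46.6% and 32%. Class 5 and class 7 were higher in all 3 of their genes: Sema5b with a log2 fold change of 0.69 (SE 0.031), Sema7a with 0.62 (SE 0.032) and Sema5a with 0.23 (SE 0.039). In class 6, whose members also act as receptors on the cell that carries them, Sema6a (0.66, SE 0.023), Sema6d (0.60, SE 0.027) and Sema6b (0.49, SE 0.055) were higher and Sema6c was not called (-0.12, SE 0.079). Sema6c was called lower with the dish as block (-0.22, adjusted p = 0.00107), in the same 12 libraries without the block (-0.22, adjusted p = 0.00359) and without input ethanol replicate 5 (-0.19, adjusted p = 0.0276). In class 4, Sema4b (0.17, SE 0.028) and Sema4g (0.14, SE 0.044) were higher, Sema4a (-1.06, SE 0.14) and Sema4c (-0.61, SE 0.037) were lower, and Sema4d (0.03, SE 0.034) and Sema4f (-0.07, SE 0.071) were not called. Sema4a was a rare transcript, at 0.520 CPM in IP against 1.09 CPM in input, and Sema4c averaged 10.3 CPM in IP against 15.7 CPM in input. Sema4c shares exon bases with an antisense gene, D430040D24Rik, and the counts used here ignore strand. The call of Sema4g was lost with total counts in place of TMM (0.09, adjusted p = 0.0756).

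Among the receptors all 9 plexins were called, 6 higher and 3 lower in IP. Over all genes tested 51% were called, and 78.6% of those with at least 5 CPM. Plxna4, a signalling partner of the neuropilins, ran from 15.9 to 21.8 CPM in IP (median 19.1) and from 12.1 to 15.4 CPM in input (median 12.9), without overlap (log2 fold change 0.54, SE 0.040, adjusted p = 3.18e-17). Plxnb1 (0.33, SE 0.024), Plxna2 (0.30, SE 0.022) and Plxnb2 (0.22, SE 0.018) were separated in every library as well, and Plxnd1 (0.13, SE 0.020) and Plxna1 (0.10, SE 0.021) were higher with overlapping libraries. The lower plexins were Plxnb3 (-1.17, SE 0.15), Plxnc1 (-0.37, SE 0.058) and Plxna3 (-0.11, SE 0.027). Plxnb3, which is known from oligodendrocytes, averaged 0.423 CPM in IP against 0.956 CPM in input. Of the 9 markers of the oligodendrocyte lineage 3 were called higher and 4 lower, and their sum was 68.6 to 80.6 CPM in IP and 46.9 to 53.8 CPM in input. Their part in the result was not tested.

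Both neuropilins, the ligand-binding partners of the A-type plexins, were lower in IP. Nrp2, which prefers Sema3c and Sema3f, ran from 40.7 to 48.1 CPM in IP (median 45.0) and from 64.6 to 67.9 CPM in input (median 67.0), without overlap (log2 fold change -0.57, SE 0.025, adjusted p = 5.42e-32). Nrp1, the receptor of Sema3a, ran from 85.0 to 107 CPM in IP (median 94.0) and from 102 to 120 CPM in input (median 110) with overlapping libraries (log2 fold change -0.23, SE 0.022, adjusted p = 6.59e-15). The overlap was between IP ethanol and input control libraries. Within control cultures Nrp1 stayed between 85.0 and 93.1 CPM in IP and between 102 and 104 CPM in input. Within ethanol cultures it stayed between 95.0 and 107 CPM in IP and between 116 and 120 CPM in input.

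**Figure D2:**
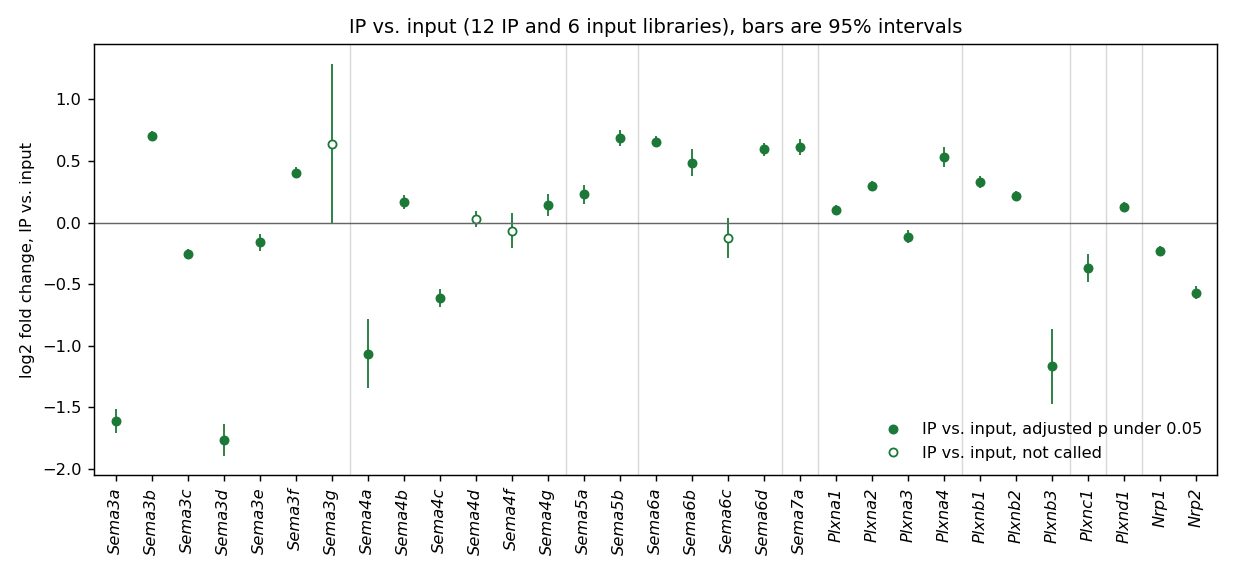
log2 fold change of each gene between 12 IP and 6 input libraries, with 95% intervals, filled points for an adjusted p below 0.05 and vertical lines between gene classes. Sema3d and Sema3a are lowest, Sema3b and Sema5b are the highest called genes, and all class 5 and class 7 points lie above 0.

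**Figure D3:**
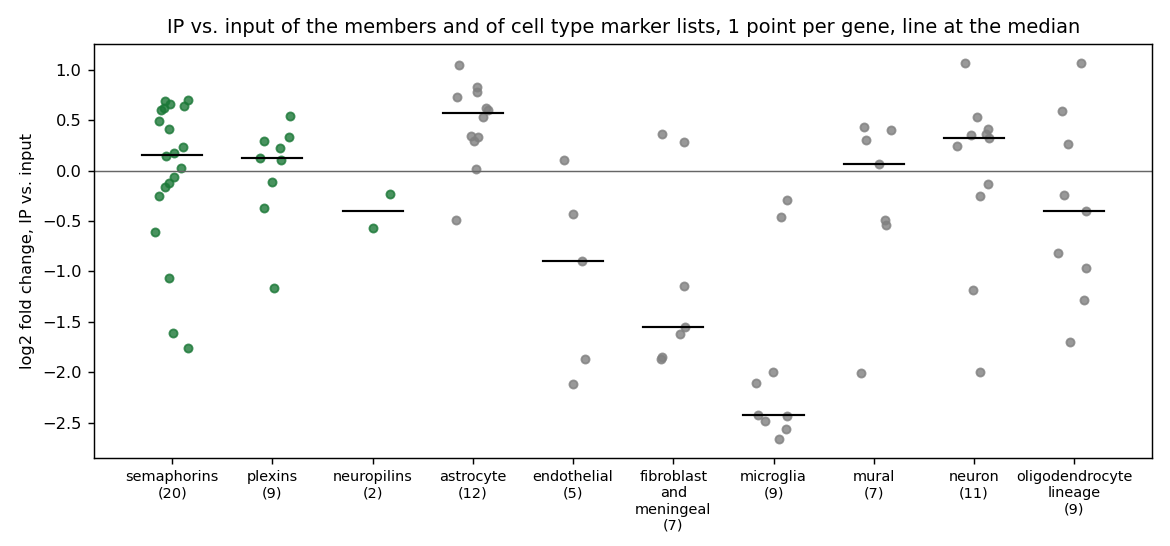
log2 fold change between IP and input for the 20 semaphorins, 9 plexins and 2 neuropilins (green) and for the genes of each cell type marker list (grey), 1 point per gene with a line at the median and the number of genes in parentheses. Astrocyte markers have a median of 0.57 and microglial markers of -2.43, and the semaphorins span from -1.76 to 0.70.

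The response to ethanol was tested in each fraction on its own. In IP 14 of the 31 genes were upregulated by ethanol, 2 were downregulated and 15 were not called. This is 45.2% up and 6.45% down, against 11.9% up and 9.48% down over all genes tested. All 16 called members were among the 25 with at least 5 CPM, and of all genes at that level 22.9% were up and 17.3% down (40.2% in all), against 56% and 8% of these members. The changes were small, with log2 fold changes from -0.41 to 0.30 in the called genes and a median of 0.07 over all 31 genes, beside 0.01 over all genes tested. In 6 members every ethanol library lay above every control library and in 2 every one lay below, against 5.09% and 4.87% of all genes tested (9.96% in all) and 10.2% and 9.52% of the genes with at least 5 CPM. Where a trend of the fold changes with GC content and exon length was removed, 10 members were up and 3 down, the median of the 31 genes was 0.01, and of all genes 10.6% were up and 11.3% down. The calls of Plxna1, Plxnb2, Plxnd1 and Sema5a were lost in that fit and Nrp2 was called lower (-0.09, adjusted p = 0.0195). In replicates 1 to 3 alone, with 3 dishes in each group, 7 members were up and 1 was down, and the median was 0.05. In replicates 4 to 6 alone, with as many dishes, 13 were up and 1 was down, and the median was 0.10.

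In input, with 3 dishes in each group, 4 of the 31 genes were upregulated and 4 downregulated, which is 12.9% each, against 7.21% and 7.78% of all genes tested. Among the 11066 genes with at least 5 CPM 14.5% were up and 15.2% down (29.8% in all), and all 8 called members were at that level, 4 of 25 in each direction. The median log2 fold change of the 31 genes was 0.02, and groups were separated in 5 members upward and 6 downward, with 27.1% of all genes tested and 43.3% of those with at least 5 CPM separated in either direction. With the GC and length trend removed 7.12% of all genes were up and 8.01% down. All 8 called members kept their call in that fit, and Sema3f was called lower as well. In both fractions the same 6 genes were called in the same direction: Sema6d, Nrp1, Sema4b and Sema4d up and Sema7a and Sema3b down. Over all genes tested 10.8% were called the same way in both fractions, 5.32% up and 5.48% down. The IP and input libraries of replicates 4 to 6 came from the same dishes, so the fractions are not independent samples of the treatment. The 3 genes Sema7a, Sema6d and Nrp1 kept their call in both fractions under all alternatives, including leaving out each library.

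**Figure D4:**
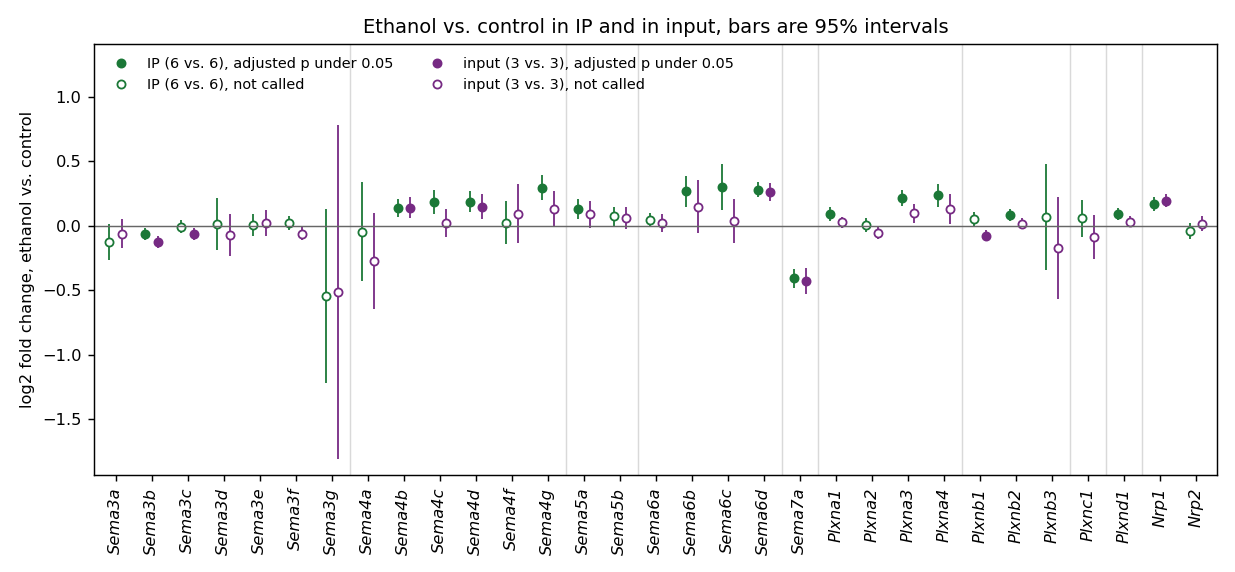
log2 fold change of ethanol against control for each gene in IP (6 against 6 libraries, green) and input (3 against 3, purple), with 95% intervals and filled points for an adjusted p below 0.05. Sema7a lies lowest of the called genes in both fractions, and the wide intervals belong to Sema3g, Plxnb3 and Sema4a, the rarest members.

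The promoters of Sema7a and Sema6d, the ligands called down and up in both fractions under every alternative, are shown here as the 250 bases before the annotated start. The sequences are those of RefSeq on build GRCm38.p6, plus strand, read 5′ to 3′. Capitals mark matches on either strand to the GC box GGGCGG, the TATA box TATAA, the E-box CACGTG, the CCAAT box CCAAT and the heat shock element GAANNTTC, which do not overlap in these windows. The Sema7a window lies at chr9:57939862-57940111 and the Sema6d window at chr2:124089719-124089968.
Sema7a: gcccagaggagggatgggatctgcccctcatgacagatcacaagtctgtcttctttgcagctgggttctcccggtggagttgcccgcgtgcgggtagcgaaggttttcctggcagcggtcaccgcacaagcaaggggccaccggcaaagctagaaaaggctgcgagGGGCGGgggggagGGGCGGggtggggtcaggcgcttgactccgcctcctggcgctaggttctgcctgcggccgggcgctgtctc
Sema6d: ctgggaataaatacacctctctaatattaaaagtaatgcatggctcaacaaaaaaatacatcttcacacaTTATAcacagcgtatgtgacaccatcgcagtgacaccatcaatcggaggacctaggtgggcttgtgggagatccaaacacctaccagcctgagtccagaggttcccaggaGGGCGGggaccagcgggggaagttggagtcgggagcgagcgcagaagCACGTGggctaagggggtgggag

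The Sema7a window held 2 GC boxes and no other of these motifs, and 66.4% of its bases were G or C. The Sema6d window held 1 GC box, 1 TATA box match and 1 E-box, with 52.4% G or C, which is also the median of the 32851 promoters in the table. Of those promoters 32.7% hold a GC box in the same window, 22.8% a TATA box match, 6.0% an E-box, 33.8% a CCAAT box and 6.7% a heat shock element. These matches describe the letters and say nothing of which factor binds. RefSeq windows matched 26 of the 31 genes, and Plxna1, Plxna4, Sema3b, Sema3f and Sema6a had none. The Nrp1 window and a second Sema6d window lie inside the annotated genes and are not shown.

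Sema7a, the lipid-anchored semaphorin that signals through integrins and Plxnc1, had the largest decrease with ethanol among the called members in both fractions. In IP it ran from 31.9 to 35.2 CPM in control (median 32.5) and from 23.1 to 26.4 CPM in ethanol (median 24.3), so every ethanol library lay under every control library. The change was 1.33-fold (log2 fold change -0.41, SE 0.035, adjusted p = 2.82e-14). In input the control libraries had 21.4, 20.4 and 22.8 CPM and the ethanol libraries 16.4, 16.9 and 14.9 CPM. The groups were again apart, by -0.43 on the log2 scale (SE 0.051, adjusted p = 7.12e-15). The class 7 share of the semaphorin level per kb fell with it, from 6.46% ± 0.23 in IP control to 4.90% ± 0.25 (SD, n = 6) in IP ethanol. Its receptor gene Plxnc1 was not called in either fraction (IP 0.06, SE 0.071, and input -0.09, SE 0.088), while Itgb1, the beta1 integrin, rose in IP (0.09, SE 0.022, adjusted p = 0.00114) and in input (0.08, SE 0.022, adjusted p = 0.00337).

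Sema6d, a transmembrane ligand of Plxna1 and Plxna4, had the smallest adjusted p of the upregulated members in IP. In IP it ran from 49.3 to 56.0 CPM in control (median 51.4) and from 60.0 to 64.7 CPM in ethanol (median 63.2), without overlap. The log2 fold change was 0.28 (SE 0.030, adjusted p = 4.37e-11). In input it had 33.5, 34.0 and 36.2 CPM in control and 40.6, 44.6 and 39.4 CPM in ethanol, again without overlap, by 0.26 on the log2 scale (SE 0.037, adjusted p = 1.52e-10). In the same class Sema6b (0.27, SE 0.060, adjusted p = 4.28e-04) and Sema6c (0.30, SE 0.087, adjusted p = 0.0137) rose in IP, and neither was called in input (0.15, SE 0.10, and 0.04, SE 0.088). Sema6b was low, with 4.61 to 5.60 CPM in IP control and 5.64 to 6.58 CPM in IP ethanol, and it was not called in replicates 4 to 6 alone (0.14, adjusted p = 0.317). Sema6a, the highest of its class per kb, was not called in IP (0.05, SE 0.027) or in input (0.02, SE 0.036). The class 6 share of the semaphorin level per kb was 9.20% ± 0.23 in IP control and 10.4% ± 0.22 in IP ethanol.

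Class 4 had 4 of its 6 members upregulated in IP and none downregulated. Of all genes tested 11.9% were up and 9.48% down, and of those with at least 5 CPM 22.9% and 17.3%. Sema4g rose by 0.29 on the log2 scale (SE 0.049, adjusted p = 3.59e-06), from 8.47 to 9.75 CPM in control and from 10.2 to 12.5 CPM in ethanol, without overlap. Sema4d, also known as an immune semaphorin and as the main ligand of Plxnb1, rose by 0.19 (SE 0.040, adjusted p = 2.09e-04), Sema4c, a ligand of Plxnb2, by 0.18 (SE 0.047) and Sema4b by 0.14 (SE 0.034). In input Sema4d had 18.9, 19.4 and 19.1 CPM in control and 22.6, 19.8 and 21.5 CPM in ethanol (0.15, SE 0.049, adjusted p = 0.0195). Sema4b had 25.5, 27.6 and 27.4 CPM in control and 29.0, 30.6 and 29.4 CPM in ethanol (0.14, SE 0.042, adjusted p = 0.00826). The groups did not overlap for these genes, but the call of Sema4d in input was lost without input control replicate 4 or 6 or without input ethanol replicate 4 or 6 (adjusted p of 0.0616 to 0.223), and that of Sema4b without input control replicate 4 or input ethanol replicate 5 (0.137 and 0.0771). In IP the calls of Sema4b, Sema4c and Sema4d were lost in replicates 1 to 3 alone, with log2 fold changes of 0.13, 0.11 and 0.14.

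The genes of the secreted class 3 ligands made up most of the semaphorin mRNA level per kb. None of the 7 was upregulated in either fraction. Of all genes tested 11.9% were up in IP and 7.21% in input, and of those with at least 5 CPM 22.9% and 14.5%. Sema3d and Sema3g averaged 1.81 and 0.15 CPM in IP, and no member under 5 CPM on average was called in either fraction. Sema3b ran from 252 to 255 CPM in IP control and from 232 to 249 CPM in IP ethanol, without overlap, and the difference was small (log2 fold change -0.07, SE 0.023, adjusted p = 0.0291). Without IP ethanol replicate 1 or 4 it was not called (-0.06 in each case, adjusted p = 0.0824 and 0.0813). It also lost its IP call in replicates 1 to 3 alone and in replicates 4 to 6 alone. In input it had 152.3, 159 and 164.5 CPM in control and 144, 150.5 and 143 CPM in ethanol (-0.12, SE 0.024, adjusted p = 5.28e-06). Sema3c was lower in input only by a small margin (-0.06, SE 0.023, adjusted p = 0.0361), was not called in IP (-0.01, SE 0.025), and lost its input call with DESeq2 (adjusted p = 0.0649), with total counts in place of TMM (adjusted p = 0.0844) and without input control replicate 4, input ethanol replicate 4 or input ethanol replicate 5 (adjusted p of 0.0739 to 0.346). The intervals of Sema3a (-0.27 to 0.01), Sema3d (-0.19 to 0.21), Sema3e (-0.08 to 0.09) and Sema3f (-0.04 to 0.07) in IP all held 0. In input Sema3f was not called (-0.06, SE 0.026, adjusted p = 0.102). It was called lower there with the GC and length trend removed and without input ethanol replicate 5 (adjusted p = 0.0255 in the latter). In class 5, Sema5a rose in IP (0.13, SE 0.038, adjusted p = 0.0105) and Sema5b was not called (0.07, SE 0.037, adjusted p = 0.164). The call of Sema5a was lost in replicates 1 to 3 alone.

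Of the A-type plexins 3 of 4 were upregulated in IP, beside 11.9% of all genes tested and 22.9% of those with at least 5 CPM. Plxna3 ran from 30.2 to 33.1 CPM in IP control (median 32.1) and from 35.9 to 37.9 CPM in IP ethanol (median 36.8), without overlap (log2 fold change 0.21, SE 0.031, adjusted p = 2.98e-07). Plxna4 ran from 15.9 to 19.7 CPM (median 17.7) in control and from 18.6 to 21.8 CPM (median 21.3) in ethanol, with overlap (0.24, SE 0.043, adjusted p = 3.11e-05). Both held under every alternative in IP, at 0.16 to 0.23 for Plxna3 and 0.19 to 0.26 for Plxna4, and neither was called in input (0.10, SE 0.037, adjusted p = 0.0647, and 0.13, SE 0.059, adjusted p = 0.127). In input Plxna3 had 37.4, 34.4 and 35.8 CPM in control and 38.3, 40.4 and 36.7 CPM in ethanol, so a high control library reached into the ethanol group. In input Plxna3 was called with total counts in place of TMM (0.10, adjusted p = 0.0381) and without input control replicate 4 (0.13, adjusted p = 0.0257) or input ethanol replicate 6 (0.12, adjusted p = 0.0242), and Plxna4 without input ethanol replicate 5 (0.18, adjusted p = 0.0409). Plxna1 (0.09, SE 0.026), Plxnd1 (0.09, SE 0.025) and Plxnb2 (0.08, SE 0.022) rose in IP by the smallest margins of the called plexins, with overlapping libraries. These calls were lost in replicates 1 to 3 alone. Plxnb1 was not called in IP (0.05, SE 0.026) and was lower in input, where control had 221, 228 and 228 CPM and ethanol 219, 213 and 212 CPM (-0.08, SE 0.023, adjusted p = 0.010). That call was lost without input control replicate 5 or 6 (adjusted p = 0.0734 and 0.0661). No plexin was downregulated in IP.

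Nrp1 was upregulated in both fractions. In IP it ran from 85.0 to 93.1 CPM in control (median 88.9) and from 95.0 to 107 CPM in ethanol (median 98.5), without overlap (log2 fold change 0.17, SE 0.028, adjusted p = 3.63e-06). In input it had 104, 102 and 103 CPM in control and 116, 119 and 120 CPM in ethanol (0.20, SE 0.026, adjusted p = 2.47e-12). Nrp2 was not called in either fraction (-0.04, SE 0.032, and 0.02, SE 0.030). The Nrp1 share of the neuropilin level moved from 70.2% ± 1.2 to 73.1% ± 1.2 in IP and from 65.3% ± 0.62 to 68.1% ± 0.59 in input.

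**Figure D5:**
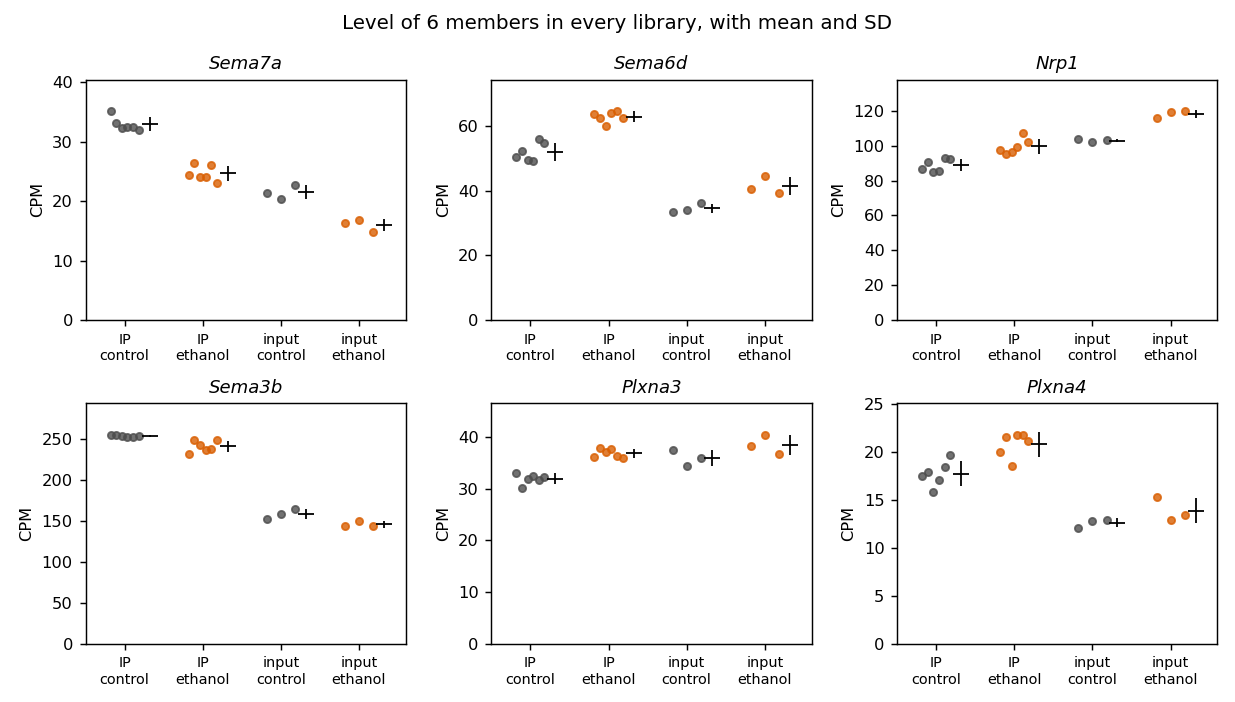
CPM of 6 genes in every library of the 4 groups (grey control, orange ethanol), with the mean and SD beside the points and all axes from 0. For Sema7a and Sema3b every ethanol library lies under every control library of its fraction, for Sema6d and Nrp1 every one lies above, and for Plxna3 this holds in IP alone.

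Summed levels of several marker lists of other cell types also moved with ethanol. The summed level of 7 mural markers was 1736 to 1873 CPM in IP control and 1167 to 1366 CPM in IP ethanol, and 1385 to 1459 CPM and 988 to 1057 CPM in input, mostly through Acta2, a smooth muscle actin (log2 fold change -0.56 in IP). The 9 microglial markers summed to 68.3 to 74.4 CPM in IP control and 76.4 to 82.4 CPM in IP ethanol, and to 161 to 166.2 CPM and 173 to 184 CPM in input. The sum of 11 neuronal markers was lower with ethanol without overlap, at 142 to 149.3 CPM in control and 129 to 136 CPM in ethanol in IP and 116 to 119 CPM and 107 to 112 CPM in input. The oligodendrocyte lineage sum was 68.6 to 78.8 CPM in IP control and 76.3 to 80.6 CPM in IP ethanol, which overlapped, and 46.9 to 50.6 CPM and 50.9 to 53.8 CPM in input, which did not. The fibroblast and meningeal sum was 128 to 143 CPM in IP control and 125 to 143 CPM in IP ethanol. Of the 12 astrocyte markers 4 were up and 1 was down in IP, and 4 were up and 4 down in input. Of the microglial markers 2 were called up and 0 down in IP, and 2 and 0 in input. For the neuronal markers, 6 of which averaged under 1 CPM, these counts were 0 and 1 in IP and 1 and 1 in input. They were 1 and 1 and then 0 and 1 for mural, and 2 and 0 and then 3 and 0 for oligodendrocyte lineage markers. No fibroblast and meningeal marker was called in either fraction. The part of these shifts in the results was not tested. In such libraries of whole dishes fewer cells of a type and less RNA per cell cannot be told apart.

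The effect of ethanol was then compared between the fractions by an interaction test. None of the 31 genes was called by edgeR, and none of the 24495 genes tested was, with 3 members and 1459 genes of all at an unadjusted p below 0.05. DESeq2 called 4 genes of all and none of the members. The member with the smallest p was Plxnb1, where the ethanol effect was 0.12 higher in IP than in input (SE 0.042, 95% interval 0.03 to 0.20, adjusted p = 0.737). In a fit blocked by dish, over the 12 libraries whose dish has both fractions, it was 0.15 (SE 0.034, adjusted p = 0.0115), and 0.416% of all genes were called in that fit. After removal of the trend with GC content and length it was 0.06 (adjusted p = 0.666). For Plxna3, called in IP and not in input, the difference was 0.11 with an interval of 0.00 to 0.21 (adjusted p = 0.830), and for Plxna4 it was 0.09 with an interval of -0.07 to 0.25. A call in a single fraction is thus not shown to be a difference between fractions. For Sema7a, Sema6d and Nrp1 the intervals of the difference were -0.12 to 0.13, -0.10 to 0.12 and -0.12 to 0.05.

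The other genes of the pathway were taken as 5 lists with 62 genes tested. Of these 27 were higher and 25 lower in IP than in input, which is 43.5% and 40.3%, beside 25.2% and 25.8% of all genes tested and 46.6% and 32% of those with at least 5 CPM. Among called genes with at least 5 CPM and no overlap the largest increases were those of Pcsk5, a protease that processes secreted proteins (log2 fold change 0.83, SE 0.046), Nrcam, an adhesion partner of Nrp2 (0.79, SE 0.023), and Dpysl5, a collapsin response mediator protein (0.71, SE 0.028). The collapsin response mediator proteins, cytosolic effectors of Sema3a, were higher in all 5 of their genes. The whole list of 19 cytoskeletal effectors and kinases that holds them had 11 genes higher, 5 lower and 3 not called. Among the decreases by the same rule were those of Tyrobp, an adaptor of myeloid cells (-2.51, SE 0.050), and Mical2, an actin-oxidising enzyme (-0.75, SE 0.025). All 4 VEGF ligands of the neuropilins were lower in IP, from -0.42 for Vegfb to -0.13 for Pgf.

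With ethanol 17 of the 62 genes were up and 12 down in IP, and 8 were up and 13 down in input. In IP this is 27.4% and 19.4%, beside 11.9% and 9.48% of all genes tested and 22.9% and 17.3% of those with at least 5 CPM. In input it is 12.9% and 21%, beside 7.21% and 7.78% of all genes and 14.5% and 15.2% of those with at least 5 CPM. Among the effectors Cfl1, the actin-severing cofilin, fell from 877 to 731 CPM in IP (-0.26, SE 0.023, adjusted p = 3.17e-13) and by 0.25 in input (SE 0.022), and Rock2 fell by 0.15 in IP (SE 0.030) and by 0.17 in input (SE 0.023). Adam17, a sheddase of membrane proteins, rose in both fractions (0.21, SE 0.025, and 0.14, SE 0.025), as did the adhesion molecules Chl1 (0.22, SE 0.044, and 0.17, SE 0.053) and Nrcam (0.09, SE 0.026, and 0.13, SE 0.032). Ptk7, a partner of plexins, rose in IP (0.12, SE 0.023). The 4 VEGF ligands had 1 gene up in IP, Vegfb (0.10, SE 0.027), and none called in input.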

How the data were processed

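RNA was measured by sequencing in 18 libraries of IP and input RNA from control and ethanol-treated astrocyte dishes. Reads were trimmed by the authors with Trimmomatic and aligned with STAR to GRCm38 with Ensembl annotation, and the authors deposited raw read counts per gene, unstranded and by strand, with no pooling. Tool versions are not given in the sources used here. The libraries were made with a stranded total RNA kit after removal of ribosomal RNA. Between the deposited table and the unstranded column of each library there were 0 differences. STAR counts only pairs mapped to a single place, and on average 3.6% of pairs mapped to several places and 5.5% were ambiguous.

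CPM with TMM scaling and log2 fold changes were computed here. edgeR's test was run on the 24495 genes that reached 10 read pairs in total, with edgeR 4.0.16 in R 4.3.3 (estimateDisp, glmQLFit with robust estimation, glmQLFTest), with Benjamini-Hochberg adjustment over all of them and a threshold of 0.05. The SE is the absolute log2 fold change over the square root of F. IP vs. input was fitted on all 18 libraries with treatment as covariate, ethanol in each fraction separately, and the interaction on all 18. The scripts were tested on simulated data. Alternatives were DESeq2 1.42.0, other scalings and filters, counts of the annotated strand, replicate blocks, a GC and length trend removed (GC known for 99.67% of genes), subsets of replicates, and each library left out. IP and input libraries with the same treatment and number come from the same dish by the numbers in their titles, and the correlations of their deviations from group means were 0.022 to 0.15 over 6 pairs. Exon lengths and GC content came from GENCODE M21 on the same build, and promoters from RefSeq. Named pathway genes were, for each comparison, the 3 largest increases and decreases among called genes with at least 5 CPM and groups that did not overlap, and all others named from the lists are examples chosen after their values were seen. The genes of 1 list enter the counts over all lists and are otherwise not reported here. Of the marker genes 2, Cldn5 and Itgam, were not tested. The genes, lists and tests were chosen with earlier results of these data known.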

Additional observations from a re-analysis of the deposited data

Results flagged for a closer look

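Of 62 sets of 6 IP libraries (31 genes in control and in ethanol), 3 had a library far from the others by Dixon's ratio, and chance alone gives about 1 in 20. Sema4a had 0.788 CPM in IP ethanol replicate 1 and 0.372 to 0.512 CPM in the other 5 libraries. Sema4g had 12.5 CPM in IP ethanol replicate 2 and 10.2 to 11.04 CPM in the others, and its ethanol call held without that library. Sema5b had 41.2 CPM in IP control replicate 6 and 37.5 to 38.6 CPM in the others.

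The ethanol effect on Plxnb1 differed between IP and input by 0.146 on the log2 scale in the fit with the dish as a block (SE 0.034, adjusted p = 0.0115), and it was not called in the fit over all 18 libraries. With the GC and length trend also removed it was 0.06 and not called. In the fit with the dish as a block 94 genes of all were called higher and 8 lower. Of the 31 members 28 had positive values there, with a median of 0.10, beside a median of 0.02 over all genes. With the GC and length trend also removed 22 members had positive and 9 negative values. Their median was then 0.03, beside 0.001 over all genes.

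The counts by strand, not used for the comparisons, put 4.35% of assigned pairs on the opposite strand over all genes. For 3 members the share was higher: 7.49% for Plxna2, 7.19% for Sema4c and 5.05% for Sema4a. With the counts of the annotated strand no call of these 3 genes changed in any comparison.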

How the results depend on the processing

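No called member changed its direction under any alternative run. Uncalled values changed sign in 31 cases over the alternatives and 25 over the left-out libraries for ethanol in IP, in 3 and 6 for ethanol in input, in 15 and 38 for the interaction, and in 1 and 0 for IP vs. input. In IP, the count of members upregulated by ethanol was 7 in replicates 1 to 3 only and 13 in replicates 4 to 6 only (14 in all 6), and the count downregulated was 1 in replicates 1 to 3 only and 1 in replicates 4 to 6 only (2 in all 6), and the cause was not tested. Pathway genes called higher numbered 11 in replicates 4 to 6 only and 6 in replicates 1 to 3 only, and called lower 7 in replicates 1 to 3 only. With each library left out in turn, members called in IP ranged from 14 to 15 up and from 1 to 2 down, and members called in input from 3 to 5 up and from 3 to 4 down. Pathway genes called higher in input ranged from 4 to 8, with 4 without input control replicate 5 and 5 without input ethanol replicate 6.

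Control and ethanol dishes share only a replicate number. In IP the deviations of same-numbered dishes correlated at -0.10 to 0.22, and with the replicate block 14 members were up and 2 down. In input these correlations were 0.017 to 0.063, each over 0 but under 0.1, and with the replicate block 4 were up and 4 down. The replicate block together with removal of the GC and length trend, chosen after seeing the data, gave 10 up and 4 down in IP. In the interaction, the dish block gave 1 member called higher, Plxnb1, which was not called once the GC and length trend was also removed. In IP vs. input the dish block gave 16 higher and 12 lower, with Sema6c added. Low counts limit Sema3g, Plxnb3 and Sema4a, whose intervals are the widest.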
